A study of Mus musculus with 4 samples.

Results

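The matrix metalloproteinase genes Mmp13, Mmp12, Mmp3, Mmp10, Mmp8, Mmp27, Mmp20 and Mmp7 lie side by side on mouse chromosome 9, and the accessible chromatin of this cluster was described in EpRas cells. All FAIRE-positive regions between 50 kb before Mmp13 and 50 kb after Mmp7 were taken, an interval of 527 kb (mm10, chr9:7222514-7749585). The 4 deposited lists placed 22 of their 88442 regions there. Merging the regions that overlapped left 10 of 35796 regions, and each was assigned to the nearest annotated transcription start site (TSS). In the nearest-gene names used here, a negative distance is upstream of the TSS and a positive distance downstream of it.

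EpRas is a line of mouse mammary epithelial EpH4 cells that carries activated H-Ras, so all groups, controls included, had active Ras signaling. FAIRE-seq sequences the DNA left unbound after formaldehyde crosslinking and phenol extraction, and marks accessible chromatin. Cells were collected at day 4 in 4 groups: untreated siControl (non-targeting siRNA), siControl treated with 1 ng/ml TGF-β, and cells on the same dose that had received siEtv4/5 set 1 or set 2, which are siRNAs against the ETS factors Etv4 and Etv5. Each group had 1 list, which may combine the reads of more than 1 biological replicate. No spread between replicates could be measured, no test of a condition was run, and all intervals below cover counting error only. In such bulk libraries, a change in accessibility per cell and a change in the share of cells cannot be told apart.

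The proteases of this cluster cut the extracellular matrix. Collagenases open the triple helix of fibrillar collagen, stromelysins cut proteoglycans, laminin and other matrix proteins and can activate the latent collagenases, and further members act on elastin, on enamel matrix or on cell surface proteins. Their genes are textbook targets of AP-1, the Fos and Jun dimers, and of ETS factors of the PEA3 family, to which Etv4 and Etv5 belong, and many carry an AP-1 site close to the TATA box. In epithelium they are known from wound repair, mammary remodeling and tumor invasion.

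The lists held 22247 regions in untreated siControl cells, 28754 with TGF-β, 22516 after set 1 and 14925 after set 2, at estimated depths of 15.3, 16.3, 17.3 and 20.7 M reads in the same order (M, 10 to the power of 6). The promoter of the epithelial keratin gene Krt8 was called in all 4 lists and each of the epithelial genes Cdh1, Epcam, Krt18 and Esrp1 in 1 to 3 of them. The promoters of Ptprc and Cd3e, genes of blood cells, were called in none, and that of the endothelial gene Pecam1 was called with TGF-β alone. The lists hold no RNA, so the knockdown of Etv4 and Etv5 could not be checked in them.

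The sequences of 7 regions are shown because they were called in at least 2 lists or lay at the Mmp13 TSS. They are the plus strand of GRCm38, 5′ to 3′, on which all member genes are read, and capitals mark matches of AP-1 (TGANTCA) and ETS (NGGAAG) letters on either strand.
Mmp13 −32.3 kb, chr9:7240102-7240329: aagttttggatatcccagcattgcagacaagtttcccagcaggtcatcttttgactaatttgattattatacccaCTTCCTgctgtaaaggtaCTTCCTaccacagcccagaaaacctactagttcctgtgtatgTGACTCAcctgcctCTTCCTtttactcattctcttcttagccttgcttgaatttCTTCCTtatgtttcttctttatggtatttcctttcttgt
Mmp13 −13.8 kb, middle 300 bases, chr9:7258541-7258840: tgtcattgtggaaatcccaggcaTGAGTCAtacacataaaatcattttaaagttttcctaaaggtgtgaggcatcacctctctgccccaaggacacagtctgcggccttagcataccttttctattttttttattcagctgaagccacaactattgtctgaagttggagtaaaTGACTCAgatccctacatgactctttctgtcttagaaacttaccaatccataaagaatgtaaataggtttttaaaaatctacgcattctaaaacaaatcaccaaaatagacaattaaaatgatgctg
Mmp13 −0.1 kb, chr9:7272372-7272499: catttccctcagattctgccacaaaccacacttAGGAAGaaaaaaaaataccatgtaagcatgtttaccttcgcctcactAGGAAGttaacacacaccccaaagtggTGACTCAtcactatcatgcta
Mmp12 −1.1 kb, chr9:7343216-7343413: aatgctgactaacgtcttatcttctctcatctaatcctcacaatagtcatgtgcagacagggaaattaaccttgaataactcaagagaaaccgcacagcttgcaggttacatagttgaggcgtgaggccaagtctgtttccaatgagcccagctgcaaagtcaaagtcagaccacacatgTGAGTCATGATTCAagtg
Mmp10 −0.1 kb, chr9:7502108-7502342: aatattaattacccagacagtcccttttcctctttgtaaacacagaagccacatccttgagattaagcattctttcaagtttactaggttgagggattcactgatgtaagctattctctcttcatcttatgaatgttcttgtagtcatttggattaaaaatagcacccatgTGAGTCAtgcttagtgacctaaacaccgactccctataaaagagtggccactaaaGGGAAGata
Mmp10 +24.4 kb, chr9:7526624-7526914: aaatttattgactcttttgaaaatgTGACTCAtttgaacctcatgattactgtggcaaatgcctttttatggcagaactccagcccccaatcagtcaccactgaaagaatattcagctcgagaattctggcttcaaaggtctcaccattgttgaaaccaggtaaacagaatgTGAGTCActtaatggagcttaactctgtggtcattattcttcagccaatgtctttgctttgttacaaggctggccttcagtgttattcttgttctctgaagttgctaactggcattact
Mmp27 +24.0 kb, chr9:7595289-7595537: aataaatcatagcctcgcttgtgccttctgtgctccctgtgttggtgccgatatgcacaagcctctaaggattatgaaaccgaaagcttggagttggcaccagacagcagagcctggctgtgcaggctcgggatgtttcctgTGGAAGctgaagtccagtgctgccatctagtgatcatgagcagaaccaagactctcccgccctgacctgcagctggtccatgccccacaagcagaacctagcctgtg

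The other 3 regions, each called in 1 list, were Mmp13 −9.0 kb at chr9:7263474-7263613, Mmp27 +1.4 kb at chr9:7572775-7572910 and Mmp20 −24.7 kb at chr9:7603447-7603580. The Mmp27 +1.4 kb region lay in intron 2 of Mmp27, and the other 9 regions lay between genes. By the nearest TSS of any annotated gene, Mmp13 held 3 regions, Mmp10 2, Mmp12 1 and Mmp27 1. The TSS nearest to the other 3 regions belonged to processed pseudogenes, Gm47741 for Mmp13 −32.3 kb and Gm47616 for Mmp27 +24.0 kb and Mmp20 −24.7 kb, so these were named by the nearest protein-coding TSS. No region was nearest to Mmp3, Mmp8 or Mmp7, nor to Mmp1a and Mmp1b, the 2 interstitial collagenase genes that the same interval holds. The gene annotation used here types Mmp1a as a polymorphic pseudogene and Mmp1b as protein-coding. The longest stretch without a region ran for 159 kb from Mmp12 −1.1 kb to Mmp10 −0.1 kb and took in the Mmp12 gene itself, Mmp1b, Mmp3 and Mmp1a.

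The interval held 6 regions in the siControl list, 7 with TGF-β, 6 after set 1 and 3 after set 2. These are 11.4, 13.3, 11.4 and 5.69 regions per Mb, where the assembled chromosomes had 8.40, 10.9, 8.50 and 5.63. The exact Poisson 95% interval of each count spanned the value of its whole list (13.3 regions per Mb with TGF-β had an interval of 5.34 to 27.4), so a density apart from the genome was not detectable at these counts. Mmp13 −13.8 kb, Mmp10 −0.1 kb and Mmp27 +24.0 kb were called in all 4 lists, 3 of 10 regions beside 29.6% of all merged regions. Another 4 of 10 were called in 1 list only, beside 31.5% of all.

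**Figure D1:**
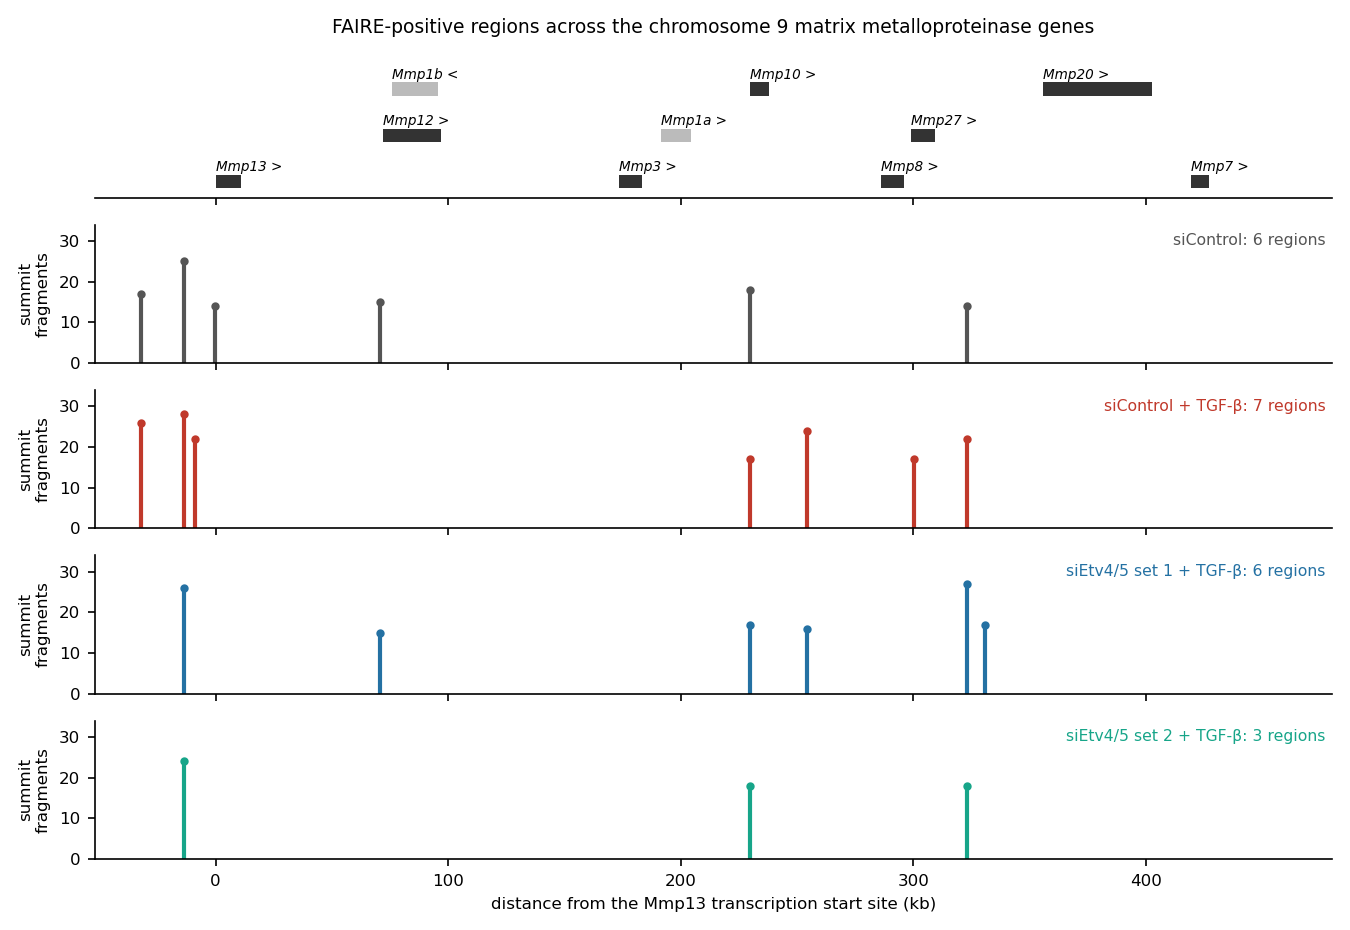
Positions of the FAIRE-positive regions of each library (x axis, kb from the Mmp13 TSS) with the fragments at the summit as height (y axis), under the member genes (dark), Mmp1a and Mmp1b (grey), with arrowheads for strand. Regions stand upstream of Mmp13, at Mmp12 and from Mmp10 to the gap before Mmp20, and a stretch of 159 kb from Mmp12 to Mmp10 holds none in any library.

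The collagenase gene Mmp13, whose product cuts type II and other fibrillar collagens, had 4 of the 10 regions by protein-coding TSS. At least 1 list lacked 3 of these 4, where only 29.6% of all merged regions were called in all 4 lists. In siControl cells 3 regions lay upstream of it, at −32.3, −13.8 and −0.1 kb. With TGF-β the −9.0 kb region was listed, and the promoter region at −0.1 kb was not. With either siEtv4/5 set only the −13.8 kb region was listed.

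The Mmp13 −32.3 kb region had 17 fragments at its summit in siControl cells and 26 with TGF-β, and it was absent from both siEtv4/5 lists. Per M reads this was 1.11 and 1.60, a ratio of 1.44 (0.52 on the log2 scale) with an interval of 0.750 to 2.82. The 2 counts were therefore not told apart at this depth. The summits lay 41 bp apart, and an AP-1 match (TGACTCA) lay 23 bp from the stronger summit with 4 ETS matches between 19.5 and 76.5 bp from it. Here and below, the stronger or strongest summit is that of the list with the highest −log10 q-value for the region.

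The Mmp13 −13.8 kb region was called in all 4 lists, with like counts. It had 25 fragments in siControl cells, 28 with TGF-β, 26 after set 1 and 24 after set 2. Against siControl with TGF-β, the log2 ratio per M reads was −0.19 for set 1 (interval −1.02 to 0.63) and −0.57 for set 2 (−1.42 to 0.27). Both intervals hold 0, and the medians of all regions called in the same pairs of lists were −0.24 and −0.67. The region held 2 AP-1 matches, 56 and 94 bp from its strongest summit by −log10 q-value, that of siControl cells, and no ETS match.

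The Mmp13 −9.0 kb region was listed with TGF-β only, with 22 fragments, and held no AP-1 or ETS match. The Mmp13 promoter region was listed in siControl cells only, with 14 fragments and the lowest −log10 q-value of the interval's regions, 6.79. Its summit lay 1 bp from the middle of the AP-1 match that begins 35 bp upstream of the TSS, with AGGAAG at 62 and 109 bp upstream. A call needed at least 12 fragments at the background around this summit in siControl cells, and by the same calculation 17 at the background measured at −9.0 kb with TGF-β. The lowest count among the peaks called with TGF-β at a background within 10% of that was 16, and the 14 fragments of siControl cells lie below both. A missing call sets no upper limit on the fragments, since the caller also asks for a minimum width. The background around the promoter itself with TGF-β was not measured, and it can differ from that at −9.0 kb. How much of the difference between the lists at the promoter came from background was not tested.

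The local background upstream of Mmp13 was higher with TGF-β. This background is the number of reads in the 10 kb around a summit, against which the caller sets the summit, with a floor given by the whole genome. Around Mmp13 −32.3 kb it was 113 reads in siControl cells and 220 with TGF-β, or 7.39 and 13.5 per M reads, a ratio of 1.83 (interval 1.45 to 2.32). Around Mmp13 −13.8 kb it was 154 reads in siControl cells, 255 with TGF-β, 244 after set 1 and 251 after set 2. The ratio with TGF-β over siControl there was 1.56 (1.27 to 1.91). The 10 kb windows of these 2 regions do not overlap, whereas those of Mmp13 −13.8 kb and Mmp13 −9.0 kb, where TGF-β gave 250 reads, do.

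A local background at least 1.5-fold higher with TGF-β was found at 2 of the cluster's 4 regions called in both siControl lists, both upstream of Mmp13, beside 0.592% of the 18075 regions called in both. The 18075 include regions at the floor in both lists, whose background ratio is fixed in advance. The same holds for the other background shares given below. A ratio as high as that of Mmp13 −32.3 kb or higher was found at 7 of these 18075, and one as high as that of Mmp13 −13.8 kb at 64. Taking the summit fragments off gave ratios of 1.90 and 1.65. Taking off the fragments of Mmp13 −13.8 kb in both lists and those of Mmp13 −9.0 kb with TGF-β gave 1.49 at Mmp13 −13.8 kb. In siControl cells Mmp13 −9.0 kb was not called, so none of its fragments could be taken off there. Elsewhere in the measured neighbourhood the ratio was 1.01 at Mmp10 −0.1 kb and 0.970 at Mmp27 +24.0 kb, and 0.933 to 1.02 at the 4 regions called in both lists within 500 kb outside the interval. Of these, the region 770.4 kb from the Mmp13 TSS lay at the floor in both lists, so its ratio was set by the floor. Only called regions have a value, so the edges of the stretch with more reads could not be placed.

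In both siEtv4/5 libraries the background at Mmp13 −13.8 kb lay above that of siControl cells without TGF-β in value, with 14.1 reads per M reads for set 1 and 12.1 for set 2, beside 10.1 without and 15.7 with TGF-β. The ratio to siControl without TGF-β was 1.40 for set 1 (1.14 to 1.73) and 1.21 for set 2 (0.983 to 1.48). Of all regions called in both lists of each pair, 1.02% for set 1 and 5.04% for set 2 had a ratio at least as high. The ratio to siControl with TGF-β was 0.901 for set 1 (0.753 to 1.08) and 0.775 for set 2 (0.649 to 0.926). A ratio at or below that of set 2 was found at 17.2% of all regions called in both lists, so it was within the usual range of that library. With the fragments of called regions taken off as above, the ratios to siControl with TGF-β were 1.00 for set 1 and 0.872 for set 2. Those of Mmp13 −9.0 kb again came off in siControl with TGF-β alone. At −32.3 and −9.0 kb neither siEtv4/5 list gives a background.

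**Figure D2:**
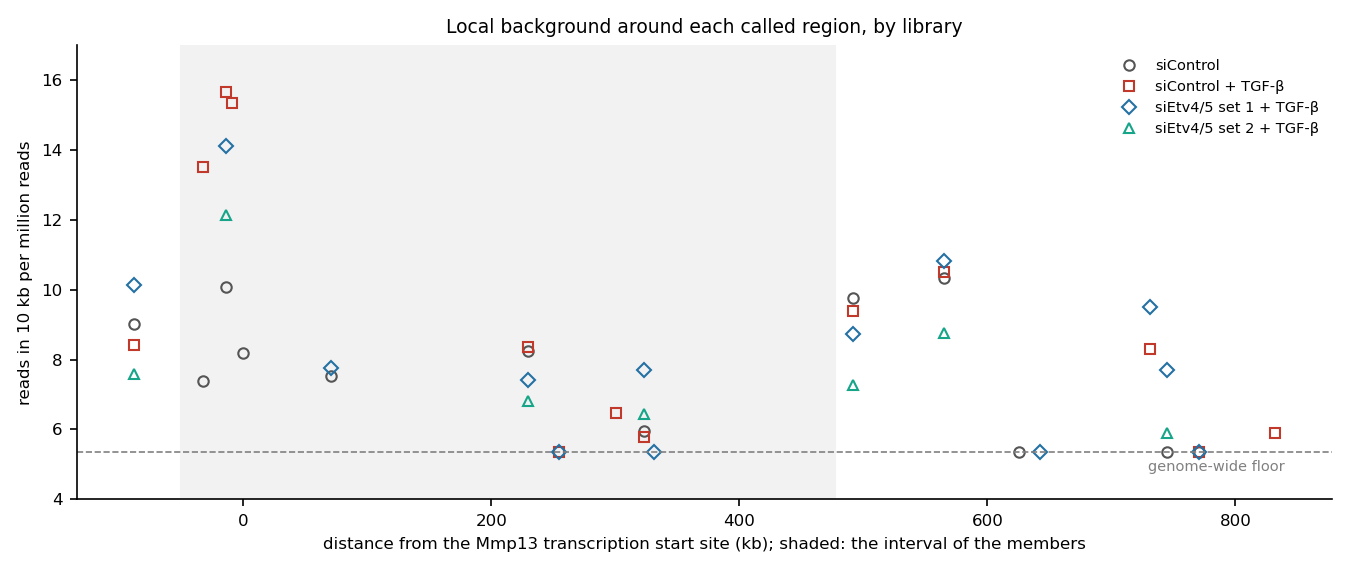
Reads in the 10 kb around each called region per M reads (y axis) by distance from the Mmp13 TSS (x axis) in the 4 libraries, within the interval (shaded) and 500 kb on either side, with the genome-wide floor dashed. The 3 values upstream of Mmp13 with TGF-β, from 13.5 to 15.7, stand above all other points except that of set 1 at −13.8 kb (14.1), while the siControl values there are 7.39 and 10.1.

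The fold enrichment in the lists is the summit over this background, and upstream of Mmp13 it was lower with TGF-β where the fragments were more. At Mmp13 −32.3 kb the fold enrichment was 7.36 in siControl cells and 6.88 with TGF-β, although the fragments were 17 and 26. At Mmp13 −13.8 kb it was 8.75 without and 6.60 with TGF-β, for 25 and 28 fragments. At the other 2 regions called in both siControl lists, the measures had the same sign, with log2 ratios of −0.17 by fragments per M reads and −0.18 by fold enrichment at Mmp10 −0.1 kb and 0.56 by both at Mmp27 +24.0 kb. Over the 4 regions called in both siControl lists, the median log2 ratio was 0.30 by fragments per M reads and −0.14 by fold enrichment, beside 0.13 and 0.12 over all 18075 regions.

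Mmp8, the collagenase of neutrophils, had no region nearest to it in any list. The closest region was Mmp27 +1.4 kb, 14 kb from the Mmp8 TSS. Its 300-base RefSeq promoter held no AP-1 match, unlike that of Mmp13.

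The stromelysin genes Mmp3 and Mmp10 differed. Mmp10, the gene of stromelysin-2, was the only member whose promoter region was called in all 4 lists, with 18 fragments in siControl cells, 17 with TGF-β, 17 after set 1 and 18 after set 2. The counts were nearly equal, the background ranged from 126 to 141 reads, and the log2 ratio per M reads was −0.17 for TGF-β over siControl (−1.22 to 0.87). Against siControl with TGF-β it was −0.09 for set 1 (−1.15 to 0.97) and −0.26 for set 2 (−1.30 to 0.78). All 3 intervals reach past a 1.5-fold change in either direction, so equal accessibility was not shown either. The AP-1 match of this region lay 102 bp from its strongest summit and 73 bp upstream of the annotated TSS.

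Mmp3, the gene of stromelysin-1, had no region at its promoter in any list, and the closest was 56.4 kb away at Mmp10. A second region of Mmp10, at +24.4 kb and so beyond the 3′ end of the gene, had 24 fragments with TGF-β and 16 after set 1, and was absent from the siControl and set 2 lists. The background was at the genome-wide floor in both lists that held it. Its fold enrichment with TGF-β, 11.6, was the highest of the 22 values in the interval. The log2 ratio of set 1 to siControl with TGF-β was −0.67 (−1.68 to 0.30), and 10.5% of all regions had a ratio at or below it. It held 2 AP-1 matches, 1 of them 3 bp from the strongest summit, and a RUNX match (TGTGGT) but no ETS match.

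At the floor, a call needed at least 10 fragments in siControl cells and 11 in each of the other libraries. The background in the lists that lack Mmp10 +24.4 kb was not measured, and the number needed is not the only condition of a call.

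Mmp12, the gene of macrophage elastase, had 1 region, 1.1 kb upstream, with 15 fragments in siControl cells and 15 after set 1. It was absent with TGF-β in siControl cells and after set 2. Its background was 115 and 134 reads, or 7.52 and 7.76 per M reads. The region held the adjacent AP-1 matches TGAGTCA and TGATTCA, 54 and 61 bp from the stronger summit, and 3 matches of the SMAD letters GTCTG.

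Mmp27, a less studied member, had a region in its intron 2 with 17 fragments with TGF-β alone, at a background of 105 reads and with an AP-1 match 23 bp from the summit. The region at +24.0 kb, between Mmp27 and Mmp20, had 14 fragments in siControl cells, 22 with TGF-β, 27 after set 1 and 18 after set 2. Per M reads these were 0.916, 1.35, 1.56 and 0.871, so both TGF-β with siControl and TGF-β after set 1 were high and the others low in value. The log2 ratio of TGF-β over siControl was 0.56 (−0.47 to 1.64), and every interval of a ratio to either siControl library held 0. The background was 91, 94, 133 and 133 reads in the same order, and its ratio for set 1 to siControl with TGF-β was 1.33 (1.02 to 1.75), a value reached or passed at 0.542% of 19016 regions.

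The +24.0 kb region also differed in sequence from the other regions called in all 4 lists. Its GC content was 54.2%, the highest of the 10, where Mmp13 −13.8 kb had 34.7% and Mmp10 −0.1 kb 37.9%. It held no AP-1 match and 1 ETS match. It held the core letters of the CTCF motif, found in 5.90% of all regions cut to the same length, on the minus strand and 51 bp from the strongest summit. These letters were searched after the sequences had been seen.

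Mmp20, the enamel protease, had no region within 2 kb, and the 1 region assigned to it by protein-coding TSS, at −24.7 kb, had 17 fragments after set 1 alone at the floor of the background. Mmp7, the gene of matrilysin, an epithelial protease, had none, and the closest region was 88.6 kb away.

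**Figure D3:**
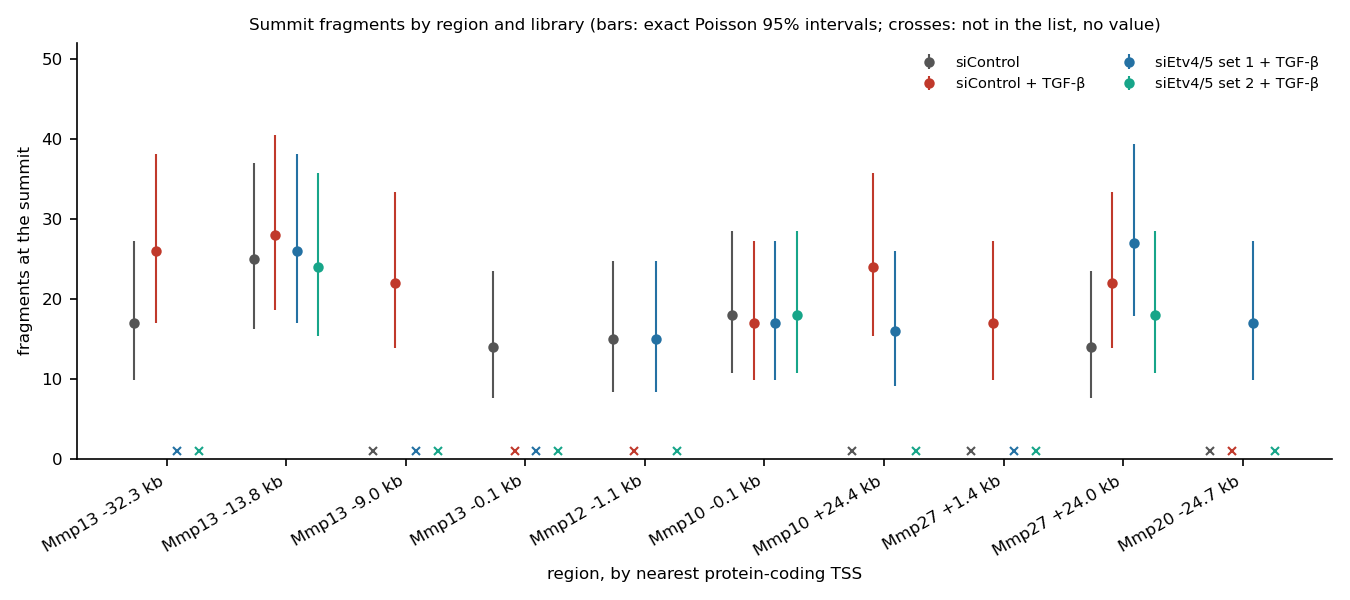
Fragments at the summit (y axis) of the 10 regions, ordered along the chromosome, in the 4 libraries, with exact Poisson 95% intervals. Crosses mark a list without the region, for which there is no value. The intervals overlap at every region called in more than 1 list, and all counts lie between 14 and 28.

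Comparing lists by overlap, 3 of the 7 regions with TGF-β were absent without it (Mmp13 −9.0 kb, Mmp10 +24.4 kb and Mmp27 +1.4 kb), beside 37.0% of all regions with TGF-β. In the other direction, 2 of the 6 siControl regions were absent with TGF-β (Mmp13 −0.1 kb and Mmp12 −1.1 kb), beside 18.4%. Of the 7 regions with TGF-β, set 1 lacked 3 (Mmp13 −32.3 kb, Mmp13 −9.0 kb and Mmp27 +1.4 kb), beside 33.6%, and set 2 lacked 4, those and Mmp10 +24.4 kb, beside 53.6%. Set 1 had 2 of 6 regions that siControl with TGF-β lacked (Mmp12 −1.1 kb and Mmp20 −24.7 kb), beside 15.2%, and set 2 had 0 of 3, beside 10.3%. With 3 to 7 regions a list, no departure from the whole lists can be read from these counts. All comparisons with siControl and TGF-β share that list, and with the lists cut to 14925 regions each by −log10 q-value only 1, 2, 2 and 3 regions remained in the interval.

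At the regions called in both lists of a pair, no summit changed beyond its counting interval. For TGF-β over siControl, 0 of 4 regions were higher by at least 1.5-fold in fragments per M reads, beside 10.6% of all regions, and 0 lower, beside 2.04%. For set 1 over siControl with TGF-β, 1 of 4 was lower by that much (Mmp10 +24.4 kb), beside 15.1%, and 0 higher, beside 0.71%. For set 2, 1 of 3 was lower (Mmp27 +24.0 kb), beside 59.5%, and 0 higher, beside 0.0451%. The member medians were −0.14 and −0.57 for set 1 and set 2, beside −0.24 and −0.67 over all regions.

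**Figure D4:**
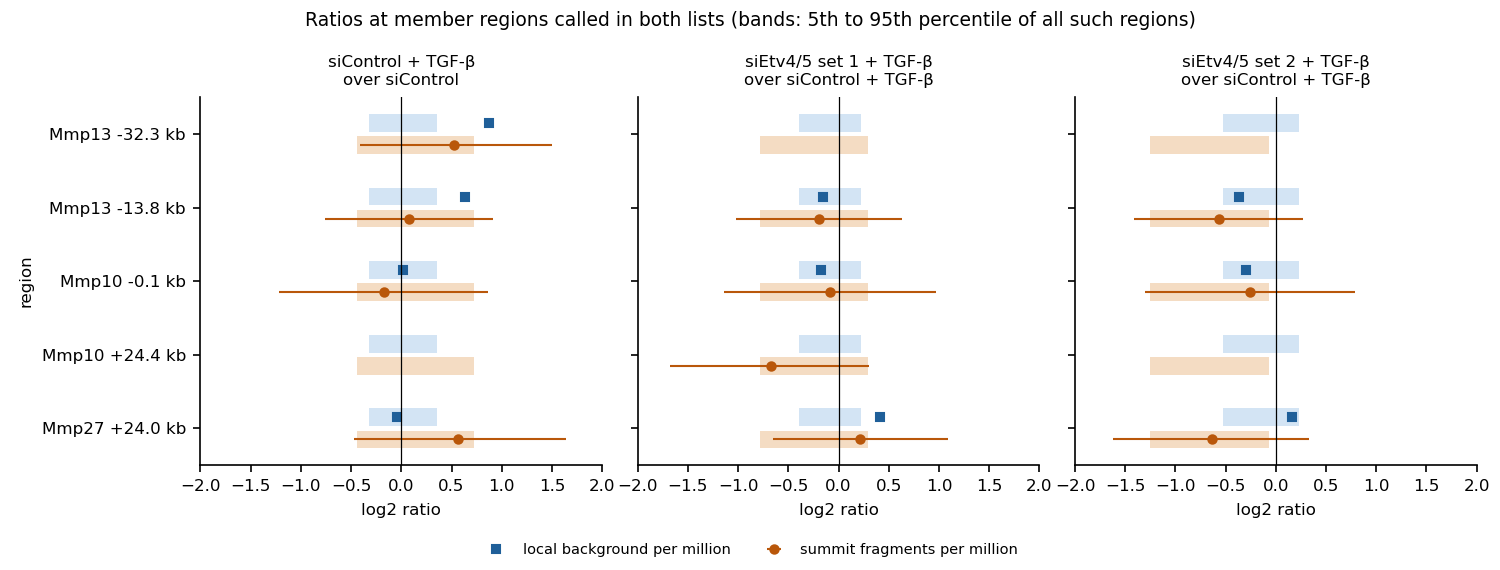
Log2 ratios (x axis) of summit fragments per M reads with 95% intervals (circles) and of local background per M reads (squares) at the regions of the cluster called in both lists of a pair (y axis). Bands span the 5th to 95th percentile of all regions called in both lists, those at the background floor in both included. The summit intervals all cross 0, and the background squares outside their band are those of Mmp13 −32.3 kb and Mmp13 −13.8 kb for TGF-β and that of Mmp27 +24.0 kb for set 1.

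Promoters within 2 kb of a region were counted for all members. They numbered 3 of 8 in siControl cells (Mmp13, Mmp12 and Mmp10), 2 with TGF-β (Mmp10 and Mmp27), 2 after set 1 (Mmp12 and Mmp10) and 1 after set 2 (Mmp10). The shares over 21911 protein-coding genes were 36.1%, 38.1%, 34.2% and 27.3%. In all 4 lists 1 member of 8 was called and in none 4, beside 23.7% and 57.4% of protein-coding genes.

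Of 15 other matrix metalloproteinase genes, Mmp1a included, 13 had no promoter call in any list, beside 57.4% of protein-coding genes. Mmp11, the gene of stromelysin-3, was called in all 4 lists with 13 fragments in siControl cells, 34 with TGF-β, 22 after set 1 and 16 after set 2, the value with TGF-β being the highest. Mmp9, the gene of gelatinase B, was called with TGF-β (18 fragments) and after set 1 (23). Among 8 protein-coding neighbours within 500 kb outside the interval, Birc2, Tmem123 and the pair Dcun1d5 and Dync2h1, which share a region, were called in all lists. Cfap300 and Yap1 were called in some of them.

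AP-1 letters were found in 7 of the 10 regions, beside 39.3% of the regions of all lists, and in Mmp13 −0.1 kb and Mmp10 +24.4 kb a match lay within 3 bp of the summit. ETS letters were found in 5 of 10, beside 59.3%, and the stricter CGGAAG in 0, beside 12.5%. RUNX letters (TGTGGT) were found in 4, beside 21.5%, and SMAD letters (GTCTG) in 7, beside 43.5%. The letters TTGCNNAA (CEBP) were in 1, beside 9.76%, GGAATG (TEAD) in 0, beside 18.2%, and those of the full NF1 palindrome in 0, beside 0.0671%. Regions differ in width, and the 7 with AP-1 were those at Mmp13 (all but −9.0 kb), Mmp12, Mmp10 and in Mmp27.

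The promoters were also read in the RefSeq table (GRCm38.p6, 250 bases before and 50 after each start), which held all 8 members. Mmp12 and Mmp7 have 2 starts each, which makes 10 promoters. AP-1 letters were in 6 of these 10, those of Mmp13, Mmp3, Mmp10 and Mmp20 and 1 each of Mmp12 and Mmp7, beside 7.79% of 32544 promoters. ETS letters were in 9 of 10, beside 71.1%. Of the 6 with AP-1 letters, those of Mmp13 and Mmp10 had a region called within 2 kb in at least 1 list. The other 4 had none, and the Mmp12 −1.1 kb region is near the upstream Mmp12 start, whose promoter held no AP-1 letters. Of 21911 protein-coding genes, 57.4% had a promoter called in no list. The 100 bases before the start of the promoters that hold AP-1 letters with no region over them are shown for comparison with the Mmp13 and Mmp10 regions above, with the same capitals.
Mmp3, chr9:7445722-7445821: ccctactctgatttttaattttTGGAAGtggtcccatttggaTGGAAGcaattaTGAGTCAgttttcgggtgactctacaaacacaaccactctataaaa
Mmp12, downstream start, chr9:7347274-7347373: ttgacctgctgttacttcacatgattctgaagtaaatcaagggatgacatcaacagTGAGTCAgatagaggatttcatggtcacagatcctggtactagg
Mmp20, chr9:7628131-7628230: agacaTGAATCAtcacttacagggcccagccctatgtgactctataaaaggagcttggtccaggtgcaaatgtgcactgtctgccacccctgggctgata
Mmp7, chr9:7691990-7692089: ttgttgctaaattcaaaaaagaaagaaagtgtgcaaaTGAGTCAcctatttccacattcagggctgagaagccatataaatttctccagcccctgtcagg

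The match began 46 bp upstream of the start in Mmp3, 44 in Mmp12, 95 in Mmp20 and 63 in Mmp7, where Mmp13 had 35 and Mmp10 63 from the RefSeq start. Mmp3 had 2 ETS matches beside it within the 100 bases. The same AP-1 letters near the start were thus present at promoters with and without a listed region.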

How the data were processed

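Per the study's methods, Ion Proton reads were cut to 36 bp and aligned to mm10 by bowtie2, and MACS2 called peaks with q under 0.0001. The submitters' processing notes name Bowtie and MACS2 2.1.0, which differs from the version in the methods, and which of these made the lists is not known. Each deposited peak has a fold enrichment (a ratio), its summit's −log10 p-value, the matching −log10 q-value by the authors' caller, and a score derived from it. Summit fragments and local background were solved from the deposited fold enrichment, with a pseudocount of 1, and the Poisson −log10 p-value. The fragments came out whole, within 0.05, in 100% of peaks, and the background in 100% of the peaks above the floor. The solution was tested on simulated data. Depth was estimated from the genome-wide floor and an effective genome of 1.87 Gb, and only its ratio between libraries is free of that size. Ratios were taken per M (10 to the power of 6) reads, with 95% intervals from the exact binomial distribution of the pair of counts. Merged regions share at least 1 bp. TSSs came from GENCODE vM21 basic, and sequences from GRCm38. No count or expression table was used, and no column was left unmapped. Python 3.11.15 and scipy 1.17.1 were used. The members and lists were chosen with earlier results of these data known. All members, all regions, other matrix metalloproteinase genes with a call and neighbours with a call were named.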

Additional observations from a re-analysis of the deposited data

Results flagged for a closer look

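At Mmp27 +24.0 kb the summit ratios of the siRNA sets to siControl with TGF-β had opposite signs per M reads. The log2 ratio per M reads was 0.21 for set 1 and −0.63 for set 2, from 22 fragments in siControl with TGF-β, 27 after set 1 and 18 after set 2. The difference between the sets was not tested, since each had 1 list, and both counting intervals held 0. The opposite signs depend on the scale. By fold enrichment both ratios were negative, −0.022 for set 1 and −0.52 for set 2, and scaled to the regions called in all lists both were positive, 0.50 and 0.094.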

How the results depend on the processing

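Of the log2 summit ratios of single regions, 12 of 33 recomputed values changed sign, 5 of 11 by fold enrichment, 6 of 11 scaled to regions of all lists and 1 of 11 without scaling, and their counting intervals held 0. Of the median ratios 3 of 9 changed sign, and of the background ratios 3 of 23. Cutting all lists to 14925 regions left 1 region in the interval for siControl, 2 with TGF-β and 2 after set 1. Under that cut, regions absent with TGF-β were 1 of 1, regions with TGF-β absent after set 1 were 1 and after set 2 were 1, regions of set 1 and set 2 absent from siControl with TGF-β were 1 and 2, and regions of all lists were 0, since fewer regions remain. Flanks of 100 kb gave 5 regions for set 2. The median log2 summit ratio of TGF-β over siControl was −0.14 by fold enrichment. Scaling to regions of all lists gave 0.15 for set 1 and 0.16 for set 2, and 0.094 for set 2 at Mmp27 +24.0 kb, since this scaling takes off each library's shift at those regions. Without scaling the background ratio of set 2 to siControl with TGF-β at Mmp13 −13.8 kb was 0.984. By protein-coding TSS, Mmp27 held 2 regions and Mmp20 1. In 500 bp around the middle, CEBP letters were in 2 regions and TEAD letters in 1. Overlap within 1 kb of the TSS gave 1 member promoter with TGF-β. The removal of both neighbouring regions' fragments from the background at Mmp13 −13.8 kb was chosen after seeing the data. It took fragments off only in lists that called the region. No paired analysis was possible because each group has 1 list. Summits of 14 to 28 fragments limit what could be told apart.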
